A study of Mus musculus with 6 samples.

Results

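Glucose uptake and glycolysis genes were compared between RAG2-GFP+ cells of the B lineage from 2 mouse tissues, the lamina propria (the connective tissue under the gut lining, here of the small intestine) and the bone marrow. The labels give a comparison of expression between these tissues as the aim. Members were the probe sets that carry 1 of 10 gene symbols, from the glucose transporter Slc2a1 to the pyruvate dehydrogenase kinase Pdk1. The platform's gene table gave 12 probe sets for 9 of these genes, out of 35556 probe sets and 19938 genes in the file. Eno1, the enolase gene, had no probe set of 1 symbol in that table and was not analysed here. RAG2-GFP makes cells fluoresce green while Rag2, a part of the recombinase that assembles antigen receptor genes, is on and for some time afterwards. All animals were of strain RAG2-GFP/129Sve, were 17 to 25 days old after birth and were kept under specific-pathogen-free conditions. Each of the 3 independent lamina propria pools and 3 bone marrow pools came from an experiment with 8 to 12 mice and was hybridised to 1 array. Precision is limited by this number of arrays. The labels do not say whether the same mice gave both tissues, and pooling hides the spread between animals.

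Glycolysis breaks glucose down to pyruvate in the cytosol and yields ATP and building blocks for growing cells. Pyruvate is then reduced to lactate or enters the mitochondria through pyruvate dehydrogenase, which the kinase Pdk1 inhibits. The transcription factors Hif1a and Myc induce many of these genes in mammals, and dividing B cell precursors in the marrow use more glucose than the small resting precursors that follow them.

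The values were log2 RMA values as the authors deposited them. Lamina propria pools 1 and 2 stood apart from the other 4 arrays. The interquartile range over all probe sets was 2.00 and 1.94 in these pools and 2.47 in lamina propria pool 3, against 2.41 to 2.46 in the bone marrow. Genes with a marrow mean of 7 to 8 lay below it by medians of 1.02 and 1.07 in lamina propria pools 1 and 2, and by 0.05 in pool 3. At a marrow mean of 5 to 6 the medians were 0.44 and 0.40 above it in pools 1 and 2 and 0.02 below in pool 3. The part of this shift in the results was not tested, so the members are given pool by pool. All 10 measured B lineage markers lay above the array's median gene in every array, and their mean level was 9.42 to 9.77 in lamina propria pools and 9.69 to 10.32 in marrow pools. Of these 10, 9 had negative differences, while 67.6% of all genes had positive ones. The recombinase genes Rag1 and Rag2, at -1.05 and -2.35 (limma adjusted p = 0.307 and 0.155), were lower without overlap, as were 7.27% of all genes. Rag2 read 5.67, 5.75 and 6.06 in lamina propria pools, near the array's median gene, against 7.76, 8.49 and 8.28 in marrow pools.

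None of the 9 members passed the test between the tissues. Slc2a1, Hk2, Pfkl, Aldoa, Pkm and Ldha had positive differences of 0.33 to 0.73 log2 units in the lamina propria, and Pfkp, Pgk1 and Pdk1 negative ones of -1.01 to -0.49. By limma with Benjamini-Hochberg adjustment over all 19938 genes, 0 members and 0 genes (0% of all genes) had an adjusted p under 0.05, and the members' adjusted p ran from 0.356 to 0.573. At an unadjusted p under 0.05 there were 2 members, Slc2a1 and Pfkl, both higher, where 13.7% of all genes were called, 5.53% higher and 8.15% lower. The tissues did not overlap for 2 of 9 members, both higher, against 22.1% of all genes, 14.8% higher and 7.27% lower. The 6 of 9 positive differences stand beside 67.6% of all genes. The median difference over the members was 0.36, against 0.22 over all genes, and the counts of positive differences and of genes without overlap lay near those of all genes. The 2 medians were further apart after cyclic loess scaling, at 0.40 and 0.01, and among genes above the median level, at 0.36 and -0.05. They were closer with array weights, at 0.32 and 0.30, and without bone marrow pool 1, at 0.25 and 0.23. Without lamina propria pool 3 the members' median was the lower one, at 0.27 against 0.33.

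**Figure D1:**
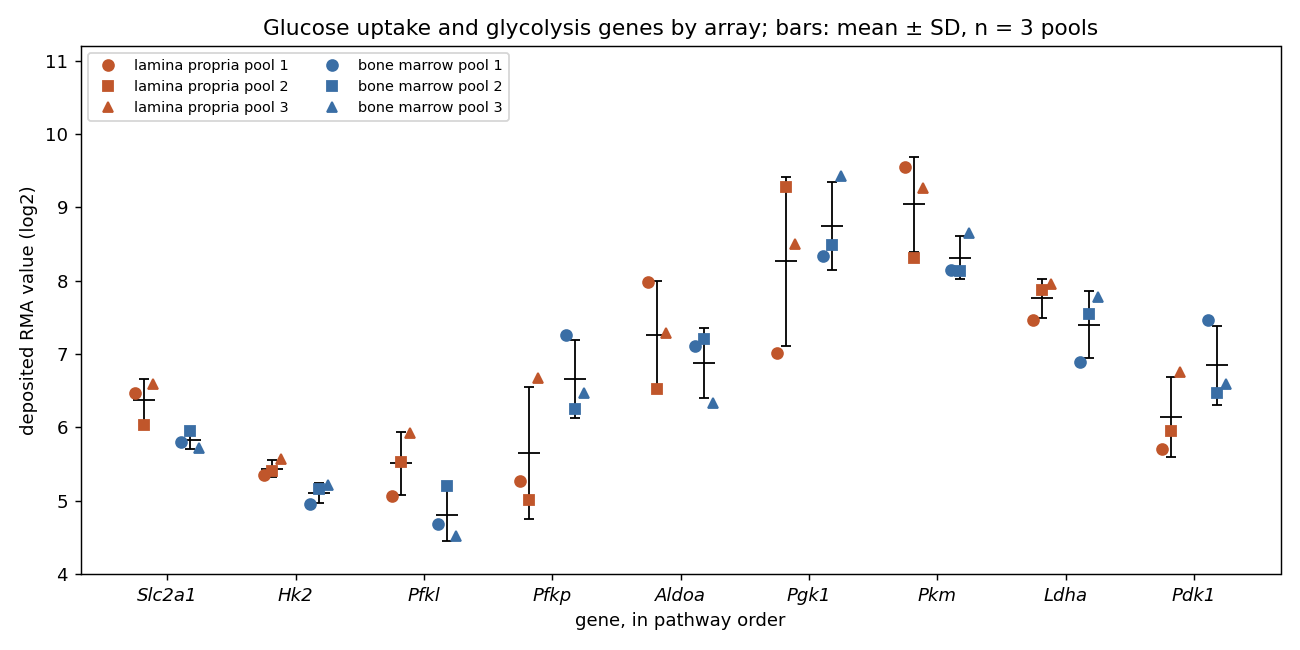
Deposited log2 value of each measured member in each array, with lamina propria pools at the left and bone marrow pools at the right of each gene, and mean ± SD of 3 pools as bars. For Slc2a1 and Hk2 every lamina propria pool lies above every bone marrow pool, and the tissues overlap for the other 7 genes. Heights are not comparable between genes, since each probe set has its own response.

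Slc2a1 encodes GLUT1, the carrier that brings glucose into most blood cells. Its probe set 10507594 read 6.47, 6.04 and 6.60 in lamina propria pools 1 to 3, against 5.80, 5.95 and 5.72 in the bone marrow pools. Every lamina propria pool was above every marrow pool, with pool 2 only just above. Lamina propria pools averaged 6.37 ± 0.29 and marrow pools 5.82 ± 0.12 (mean ± SD over 3 pools each). The difference was 0.54 (95% interval 0.02 to 1.07), a 1.46-fold higher value, with a limma adjusted p of 0.356.

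Hk2 encodes hexokinase 2, which phosphorylates glucose and so traps it in the cell. Probe set 10545588 read 5.35, 5.40 and 5.57 in the lamina propria, against 4.96, 5.16 and 5.21 in the bone marrow. The pools again did not overlap, but all values lay near or under the median gene of their array, which was 5.39 to 5.62. The difference was 0.33 (95% interval -0.13 to 0.78, limma adjusted p = 0.371). After cyclic loess scaling it was 0.03. When each array was centred on its median, lamina propria and marrow pools overlapped for both Slc2a1 and Hk2, and 0 members were left without overlap. In bulk samples of this kind, more cells that express a gene and more RNA of it per cell cannot be told apart.

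The promoters of these genes are shown because they are the members whose tissues did not overlap. Each window, from RefSeq on GRCm38.p6, runs from 250 bases before the gene's start to 50 after it. The Slc2a1 window lies at chr4:119108495-119108794, plus strand, and the Hk2 window at chr6:82774405-82774704, minus strand. Capitals mark ACGTG or GCGTG on either strand (on the opposite strand these read CACGT and CACGC), the core of the hypoxia response element that HIF factors bind. Both windows hold 2 matches, all before the start.
Slc2a1 promoter: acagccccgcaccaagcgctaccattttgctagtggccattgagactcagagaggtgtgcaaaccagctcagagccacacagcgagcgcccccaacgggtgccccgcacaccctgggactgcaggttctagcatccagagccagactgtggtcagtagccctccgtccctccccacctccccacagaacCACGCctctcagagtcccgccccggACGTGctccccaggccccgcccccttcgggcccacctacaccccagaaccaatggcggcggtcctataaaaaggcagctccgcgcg
Hk2 promoter: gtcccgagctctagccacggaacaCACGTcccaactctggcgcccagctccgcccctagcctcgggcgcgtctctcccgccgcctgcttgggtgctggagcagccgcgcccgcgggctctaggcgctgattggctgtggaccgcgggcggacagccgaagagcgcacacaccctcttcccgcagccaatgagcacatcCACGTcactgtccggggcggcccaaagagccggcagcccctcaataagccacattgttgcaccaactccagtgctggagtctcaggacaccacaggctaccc

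Phosphofructokinase catalyses the committed step of glycolysis, and its liver-type and platelet-type subunits, encoded by Pfkl and Pfkp, differed in opposite directions. Pfkl, probe set 10370376, read 5.07, 5.53 and 5.93 in the lamina propria, against 4.69, 5.20 and 4.52 in the bone marrow. Lamina propria pool 1 lay inside the marrow range, and pools 2 and 3 above it. Lamina propria pools averaged 5.51 ± 0.43 and marrow pools 4.802 ± 0.35 (mean ± SD over 3 pools each). The difference was 0.71 (95% interval 0.01 to 1.41) or 1.64-fold, with a limma adjusted p of 0.356.

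Pfkp, probe set 10407481, read 5.28, 5.01 and 6.68 in the lamina propria, against 7.27, 6.25 and 6.47 in the bone marrow. Lamina propria pools 1 and 2 were below all marrow pools, and pool 3 was inside their range. Lamina propria pools averaged 5.65 ± 0.90 and marrow pools 6.66 ± 0.53 (mean ± SD over 3 pools each), a difference of -1.01 (95% interval -2.13 to 0.11, limma adjusted p = 0.356). Pfkp had the largest difference of the 9 members, 2.01-fold. Without lamina propria pool 3 the difference was -1.52 and passed (limma adjusted p = 0.0272), in a fit that called 7222 of all 19938 genes. With pool 3 as the only lamina propria array it was 0.02, so pools 1 and 2 carry it.

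The ratio of both subunits within an array does not move with a constant shift of that array. The log2 ratio of Pfkl to Pfkp signal was -0.20, 0.53 and -0.75 in the lamina propria, against -2.58, -1.05 and -1.95 in the bone marrow. All lamina propria pools, pool 3 included, were above all marrow pools, and the mean ratios differed by 1.72. The shift of pools 1 and 2 depended on the level, with medians of 0.52 and 0.54 at a marrow mean of 4 to 5, where Pfkl lies, and of -0.09 and -0.13 at 6 to 7, where Pfkp lies. Pfkp's marrow mean of 6.66 lies in the upper part of that band, and the medians of the next one were -1.02 and -1.07. The part of this shift in the ratio was not tested. This pair was chosen after its values were seen. Among the 36 pairs of members, 8 had ratios that did not overlap between the tissues, against 19.8% of all pairs of genes, and each of the 8 holds Pfkp or Pdk1. With 3 pools per tissue, the smallest two-sided p of an exact permutation test is 0.1, so none was run on the ratio.

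The 2 subunit genes' promoters are shown for their opposite differences. The Pfkl window lies at chr10:78009758-78010057, minus strand, and the Pfkp window at chr13:6648722-6649021, minus strand. Pfkl has 1 match in capitals and Pfkp has 4, of which 3 precede the start.
Pfkl promoter: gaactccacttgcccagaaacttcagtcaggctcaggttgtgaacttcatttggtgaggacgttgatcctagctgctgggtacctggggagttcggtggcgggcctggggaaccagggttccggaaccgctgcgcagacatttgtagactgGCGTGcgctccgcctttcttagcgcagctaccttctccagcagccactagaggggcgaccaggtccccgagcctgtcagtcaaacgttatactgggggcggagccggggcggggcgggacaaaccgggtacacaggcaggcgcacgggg
Pfkp promoter: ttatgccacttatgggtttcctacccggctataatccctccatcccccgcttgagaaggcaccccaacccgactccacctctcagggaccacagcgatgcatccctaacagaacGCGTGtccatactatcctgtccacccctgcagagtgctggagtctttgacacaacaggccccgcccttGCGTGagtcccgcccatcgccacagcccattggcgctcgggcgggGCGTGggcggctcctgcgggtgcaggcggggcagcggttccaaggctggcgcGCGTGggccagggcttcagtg

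Aldoa encodes aldolase A, which splits the 6-carbon sugar, and Pgk1 encodes phosphoglycerate kinase, which makes the first ATP of the pathway. Aldoa, probe set 10568050, read 7.99, 6.52 and 7.29 in the lamina propria, against 7.10, 7.20 and 6.34 in the bone marrow. Pool 1 was high and pool 2 low within the lamina propria, so the tissues overlapped. The difference was 0.38 (95% interval -0.58 to 1.35, limma adjusted p = 0.538). It rests on single arrays, being 0.022 without lamina propria pool 1, 0.76 without lamina propria pool 2 and 0.11 without marrow pool 3.

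Pgk1, probe set 10399379, read 7.01, 9.27 and 8.50 in the lamina propria, against 8.33, 8.48 and 9.43 in the bone marrow. Here lamina propria pool 1 was lowest and pool 2 highest, the reverse of Aldoa, and the lamina propria pools spanned 2.26 log2 units. The difference was -0.49 (95% interval -1.84 to 0.87, limma adjusted p = 0.573). Its direction was not settled, as it was 0.14 without lamina propria pool 1 and 0.01 after cyclic loess scaling. Of the 3 Pgk1 probe sets, 2 held identical values in all arrays and the third, 10601390, differed by -0.39 between the tissues. They list the same accessions, so the gene table does not tell the Pgk1 locus from near-identical copies, and these values are uncertain.

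Pkm encodes the muscle-type pyruvate kinase, which makes pyruvate and the last ATP of the pathway. Probe set 10528480, the one of its 2 with the higher mean, read 9.55, 8.32 and 9.26 in the lamina propria, against 8.15, 8.13 and 8.65 in the bone marrow. Pools 1 and 3 of the lamina propria were above all marrow pools and pool 2 was among them. Lamina propria pools averaged 9.04 ± 0.65 and marrow pools 8.31 ± 0.29 (mean ± SD over 3 pools each), a difference of 0.73 (95% interval -0.09 to 1.55, limma adjusted p = 0.356). Without lamina propria pool 1 it was 0.48.

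The other Pkm probe set, 10585932, read 8.54, 7.20 and 8.57 in the lamina propria, against 7.61, 7.89 and 7.95 in the bone marrow. It repeats the high pools 1 and 3, but pool 2 was the lowest of all arrays. Its difference was 0.29 (95% interval -0.69 to 1.27, fitted over all probe sets). This probe set lists 8 accessions, 2 of them RefSeq mRNAs, while the one above lists 2 and no RefSeq mRNA, so the smaller difference belongs to the probe set with more accessions. Neither is assigned to the M1 or M2 splice form in the gene table.

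**Figure D2:**
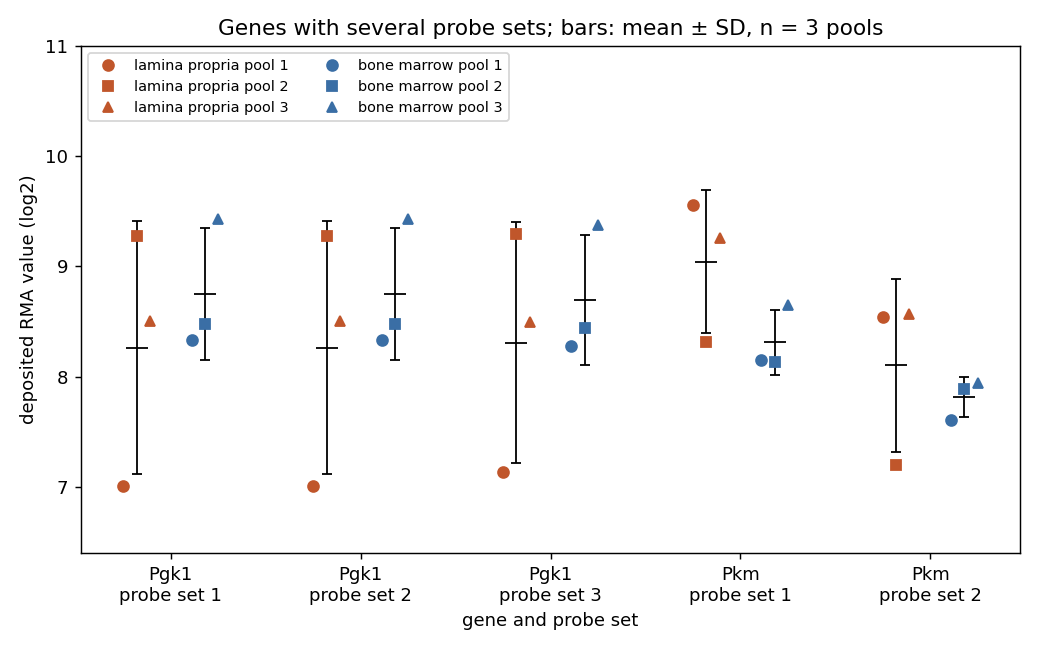
Deposited log2 values of the 3 Pgk1 and 2 Pkm probe sets in each array, lamina propria left of bone marrow, with mean ± SD of 3 pools. The first 2 Pgk1 probe sets hold identical values, and the Pkm probe sets differ by 0.73 and 0.29 between the tissues.

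Ldha encodes the lactate dehydrogenase subunit that favours the making of lactate, and Pdk1 the kinase that switches pyruvate dehydrogenase off. Ldha, probe set 10553301, read 7.46, 7.88 and 7.95 in the lamina propria, against 6.89, 7.54 and 7.77 in the bone marrow. Lamina propria pools 2 and 3 were above all marrow pools, and marrow pool 1 was the lowest array. Lamina propria pools averaged 7.76 ± 0.26 and marrow pools 7.40 ± 0.46 (mean ± SD over 3 pools each), a difference of 0.36 (95% interval -0.31 to 1.03, limma adjusted p = 0.441). It was 0.10 without marrow pool 1 and 0.55 without marrow pool 3.

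Pdk1, probe set 10472846, read 5.71, 5.95 and 6.75 in the lamina propria, against 7.47, 6.47 and 6.60 in the bone marrow. As for Pfkp, lamina propria pools 1 and 2 were below all marrow pools, pool 3 was among them and marrow pool 1 was the highest array. Lamina propria pools averaged 6.14 ± 0.54 and marrow pools 6.84 ± 0.54 (mean ± SD over 3 pools each), a difference of -0.71 (95% interval -1.58 to 0.17, limma adjusted p = 0.359). Without marrow pool 1 it was -0.39. In pool 3 alone Pdk1 was 0.09 below the marrow mean.

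The Ldha window at chr7:46845554-46845853, plus strand is shown because it held the most matches of the members' windows. It has 7, counted on both strands, and 4 of them come from 2 copies of CACGTG, the E-box that Myc binds, each of which reads as a match on both strands.
Ldha promoter: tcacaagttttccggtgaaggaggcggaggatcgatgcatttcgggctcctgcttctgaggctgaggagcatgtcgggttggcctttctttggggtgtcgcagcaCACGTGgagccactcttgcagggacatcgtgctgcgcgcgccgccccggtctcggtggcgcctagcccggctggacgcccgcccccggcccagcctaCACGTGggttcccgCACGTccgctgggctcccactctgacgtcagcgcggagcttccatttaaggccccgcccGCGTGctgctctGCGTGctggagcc

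Across the 17 RefSeq windows of all 10 member genes, 14 (82.4%) held the hypoxia core, against 43.8% of 32851 windows of all genes. The E-box was in 1 of 17 (5.88%), against 7.15% of all windows. Member windows had a median GC content of 65.3%, against 52.7% over all windows, and windows of 1 gene overlap in part. These matches are letters in a window, and their relation to binding or to the members' differences was not tested.

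Pool by pool, the members were most alike in lamina propria pool 3, the array closest to the bone marrow. In pool 3, 6 of 9 members (Slc2a1, Hk2, Pfkl, Aldoa, Pkm and Ldha) were above all marrow pools, where 24.8% of all genes were, and 0 were below, where 26.7% were. Their median difference from the marrow mean was 0.46 in pool 3, against -0.01 over all genes. In pool 1, 4 members were above all marrow pools and 3 below, against 59.7% and 24.1% of all genes. In pool 2, 4 were above and 2 below, against 58.4% and 25.2%. The medians were 0.24 and 0.22 in pools 1 and 2, beside 0.31 for all genes in both. Pool 3 is 1 array, so this pattern has no replicate.

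Which members were free of overlap depended on the arrays used. It was 4 without lamina propria pool 1 (Pfkl and Ldha in addition), 4 without pool 2 (Aldoa and Pkm in addition) and 4 without pool 3 (Pfkp and Pdk1 in addition, both lower). The shares of all genes were then 25.7%, 25.9% and 69.9%.

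**Figure D3:**
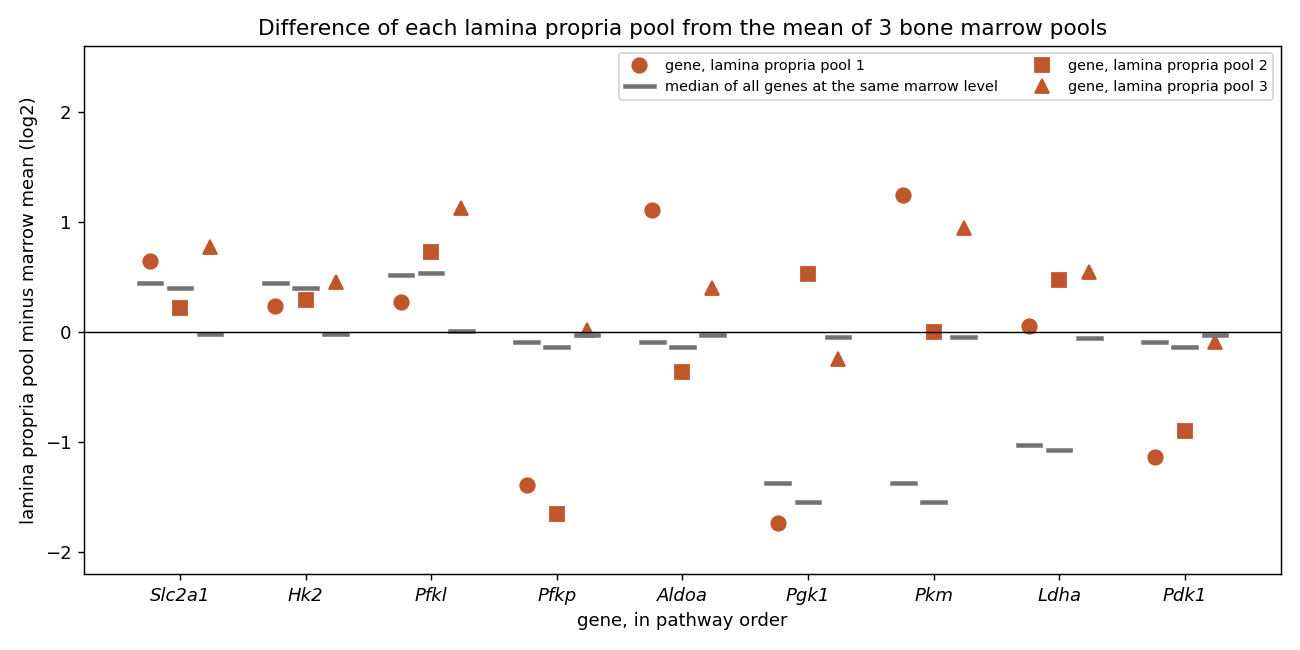
Difference of each lamina propria pool from the mean of the 3 bone marrow pools in log2 units, by gene, with grey lines for the median of all genes in the same 1-unit band of marrow level and the same pool. Pool 3 lies above 0 for 7 of 9 genes, while the grey lines of pools 1 and 2 lie below -1 for the brighter Pgk1, Pkm and Ldha.

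The bright members stood beside genes that were lower in pools 1 and 2. Genes with a marrow mean of 8 to 9, the band of Pkm and Pgk1, had medians of -1.38, -1.55 and -0.04 in lamina propria pools 1 to 3. Pkm was 1.24, 0.00 and 0.95 above its marrow mean in these pools. Pgk1 was at -1.74, 0.52 and -0.24. Pkm was thus above its band in all 3 pools, and Pgk1 below it in pools 1 and 3. Ldha, in the band of 7 to 8, was 0.06, 0.47 and 0.55 above its marrow mean, where the band's medians were -1.02, -1.07 and -0.05. Pfkp and Pdk1, in the band of 6 to 7, were at -1.38 and -1.13 in pool 1 and -1.65 and -0.89 in pool 2, where the band's medians were -0.09 and -0.13. Their marrow means, 6.66 and 6.84, lie in the upper part of that band, and the medians of the next one were -1.02 and -1.07. Slc2a1 and Hk2, in the band of 5 to 6, were 0.22 to 0.65 above marrow in pools 1 and 2, where the band's medians were 0.44 and 0.40. For these 2 genes only pool 3, at 0.77 and 0.46, was well away from the band's median of -0.02.

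The remaining glycolytic enzymes gave no call either. Of 20 listed, 16 were measured and 0 passed, 13 were positive (67.6% of all genes), 1 did not overlap (22.1% of all genes), and the median was 0.30, against 0.22 over all genes. Hk1, the hexokinase of most tissues, had a difference of 0.44 (95% interval -0.44 to 1.32). Its other probe set, with a lower mean, differed by -0.15, so the direction of Hk1 is not settled. Tpi1, triosephosphate isomerase, differed by 0.10, and Pgam1, phosphoglycerate mutase, by -0.24, with another of its probe sets at 0.10. Pfkm, the muscle-type phosphofructokinase subunit, differed by 0.12 and did not share the negative difference of Pfkp, though this contrast was not tested. Pgam2 and Eno3, muscle-type enzymes, differed by 0.51 each. The gene without overlap, named after its values were seen, was the testis-type Pgk2, at 0.53. It read 4.45, 4.37 and 3.79 in the lamina propria, against 3.69, 3.69 and 3.64 in the bone marrow. All these values lay far under the median gene of their array, which was 5.39 to 5.62. Gapdh and Gpi1 had no probe set of 1 symbol and were not analysed here.

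Among 16 other glucose and lactate transport genes, 0 passed, 13 were positive (67.6% of all genes) and 3 were higher without overlap (14.8% of all genes), with a median of 0.36 against 0.22 over all genes. Slc16a1, the monocarboxylate carrier MCT1 that moves lactate, read 4.78, 5.47 and 7.58 in the lamina propria, against 7.44, 7.86 and 7.65 in the bone marrow. Pools 1 and 2 were far below marrow and pool 3 inside its range, as for Pfkp. Its difference was -1.71 (95% interval -3.23 to -0.18, limma adjusted p = 0.356). The lactate exporter Slc16a3 differed by 0.46, its partner chain Bsg by -0.08, and Slc2a3 and Slc2a9, of the family of sugar carriers, by 0.27 and 0.10. Txnip, which lowers glucose uptake, differed by -0.77, with 7.36, 8.40 and 10.31 in the lamina propria, against 9.06, 9.60 and 9.70 in the bone marrow. The carriers without overlap were Slc2a5, Slc2a6 and Slc2a10, at 0.70, 0.41 and 0.43, of which Slc2a5 and Slc2a10 were named after their values were seen. These last 2 lay under the median gene of every array. In pool 3 the 3 carriers were 0.26, 0.14 and 0.15 above the marrow mean. All genes with a marrow mean of 4 to 5, as for Slc2a10, had medians of 0.52 and 0.54 in pools 1 and 2. The part of that shift was not tested.

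Of 15 measured regulators of glycolytic flux 0 passed, 3 were higher and 3 lower without overlap (14.8% and 7.27% of all genes), and the median was -0.01. Myc differed by 0.81 (95% interval -0.22 to 1.84), with 7.01, 8.73 and 8.06 in the lamina propria, against 6.69, 7.36 and 7.33 in the bone marrow. Pfkfb3, which makes the activator of phosphofructokinase, differed by -0.68, Tigar, which breaks that activator down, by 0.32, and the kinase gene Akt2 by -0.87. Rheb, an activator of mTOR, differed by 0.19. The genes without overlap were named after their values were seen. The higher ones were Mycn, a Myc relative, at 1.37 (95% interval 0.57 to 2.16, limma adjusted p = 0.304), Fbp2 at 0.73 and Pfkfb4 at 0.39. All Fbp2 and Pfkfb4 values lay under the median gene of their array. The lower ones were Fbp1, a gluconeogenic phosphatase, at -0.83, Mtor at -0.33 and Prkaa1, a catalytic subunit of the energy sensor AMPK, at -1.59.

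Among the pathway lists, the enzymes that follow pyruvate gave the lowest medians. For the tricarboxylic acid cycle, which oxidises acetyl-CoA in mitochondria, 16 of 17 listed genes were measured and 0 passed. Of these 16, 12 were negative, while 67.6% of all genes were positive. Lower without overlap were 4 (7.27% of all genes), and the list's median was -0.80. That median was -1.003 and -1.79 in lamina propria pools 1 and 2, and 0.19 in pool 3. Most of these genes have marrow means of 7 to 9, where all genes had medians of -1.02 and -1.38 in pool 1 and -1.07 and -1.55 in pool 2, and the part of that shift was not tested. Mdh2, Idh3g, Sdha and Idh3b differed by -0.22, -0.79, -1.06 and 0.09. Those without overlap were Sdha, Fh1, Suclg1 and Sucla2, at -1.06, -1.50, -1.09 and -2.47, the last 3 named after their values were seen. For pyruvate dehydrogenase and its regulators, 13 of 14 measured, the median was -0.15 and 0 passed. The subunit genes Pdha1, Pdhb and Dld differed by -0.67, 0.12 and -2.22, and the phosphatase Pdp1 by 0.00. Dld read 4.12, 5.91 and 8.14 in the lamina propria, against 8.28, 8.06 and 8.48 in the bone marrow, so pools 1 and 2 carry its difference. Of these 13, 2 did not overlap (22.1% of all genes), Pdk4 at 0.64 and Pdk3 at -0.56. Both are relatives of Pdk1 and were named after their values were seen. All Pdk4 values lay under the median gene of their array.

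The pentose phosphate pathway, a branch that makes NADPH and ribose, had 7 of 8 genes measured, 0 passed and a median of 0.01. Pgls, Pgd, Tkt and Rpia differed by 0.13, -0.21, 0.09 and 0.49. Taldo1, named after its values were seen, was the 1 gene of 7 without overlap (22.1% of all genes), at -0.62.

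Hypoxia response genes outside glycolysis, 22 of 23 measured, had 0 that passed, 13 positive (67.6% of all genes), 2 higher without overlap (14.8% of all genes) and a median of 0.14. Hif1a, the oxygen-regulated subunit of the factor, differed by 0.12 (95% interval -0.68 to 0.91), and its partner Arnt by -0.42. Mif, a cytokine gene, differed by 0.92 (95% interval 0.24 to 1.60) with no overlap. Vegfa and Egln3 differed by 0.16 and 0.39, and the mitophagy receptors Bnip3 and Bnip3l by -0.34 and -0.08, with another Bnip3 probe set at -1.07. Adm, a peptide hormone gene named after its values were seen, had no overlap and a difference of 1.12 (95% interval 0.48 to 1.77, limma adjusted p = 0.300). In lamina propria pools 1 to 3 it was 1.33, 1.45 and 0.59 above its marrow mean. All genes in its band of 4 to 5 had medians of 0.52, 0.54 and 0.01.

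**Figure D4:**
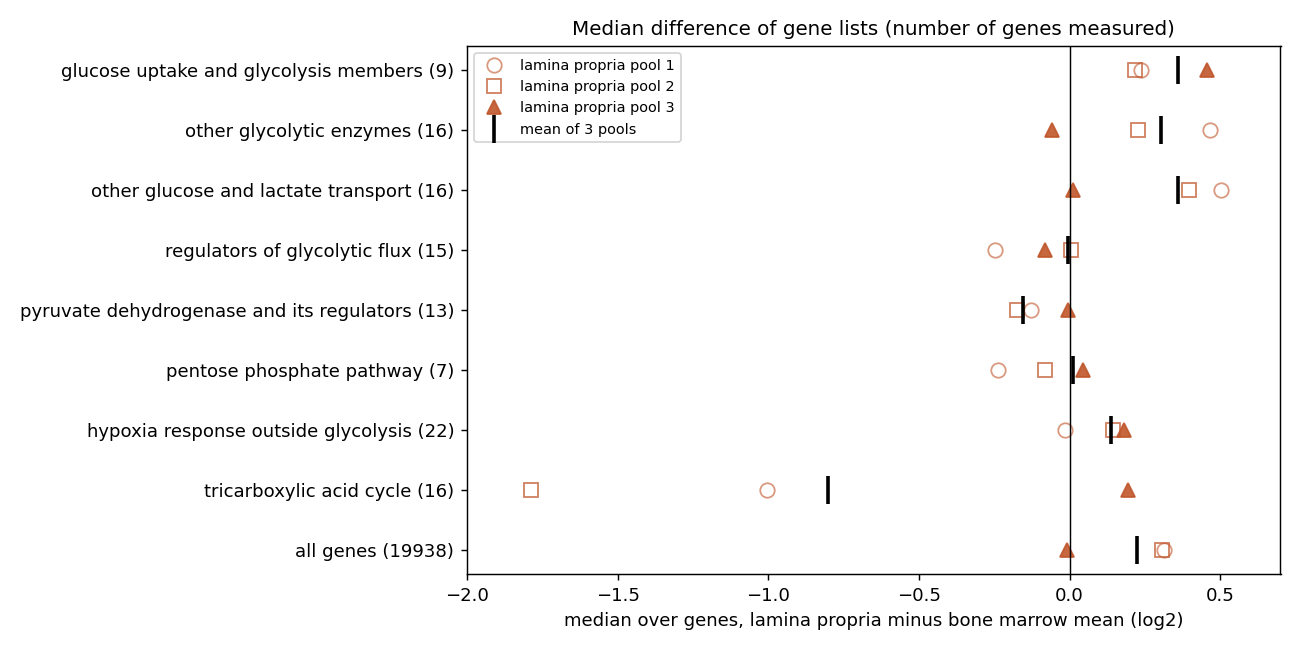
Median over each gene list of the difference between lamina propria and the bone marrow mean in log2 units, for each lamina propria pool and for the mean of the 3 pools, with the number of measured genes in brackets. The tricarboxylic acid cycle lies at -1.003 and -1.79 in pools 1 and 2 and at 0.19 in pool 3, while the glycolysis members lie between 0.22 and 0.46 in all 3.

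The members did not share a single pattern over the 6 arrays. The median of their centred values was highest in lamina propria pool 3, at 0.37, and lowest in bone marrow pool 1, at -0.29. The members' own Pearson r with this median ran from -0.14 for Pdk1 to 0.84 for Hk2. For Pfkp, Aldoa and Pgk1 it was -0.001, 0.06 and 0.12. Among 2978 other genes with a mean of at least 7, those most like this median by Pearson r over 6 arrays were Nfkbia (0.985), Rbm7 (0.956), Slc38a2 (0.943), Rab5a (0.941) and Mcl1 (0.923). With 6 arrays and so many candidates such values are a description of likeness only. Nfkbia, an inhibitor of NF-kB, read 6.97, 7.24 and 8.95 in the lamina propria, against 6.34, 7.42 and 7.67 in the bone marrow.

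Markers of other cell types had lower mean levels than the B lineage markers, and were in part higher in the lamina propria. The 19 intestinal epithelium markers had a mean level of 5.23 to 5.53 in lamina propria pools and 4.93 to 4.98 in marrow pools. Of these 19, 8 lay below and 4 above the median gene of every array. All 19 differences were positive (67.6% of all genes), with a median of 0.44, and 6 were higher without overlap, against 14.8% of all genes. Their 2 brightest, Krt8 and Cdx1, differed by 0.45 and 0.76. The 13 T cell markers averaged 5.06 to 5.43 in lamina propria pools and 4.78 to 4.96 in marrow pools. Of these 13, 7 lay below and 5 above the median gene of every array, and Cd2 and Cd247 differed by 0.27 and 0.08. All 13 differences were positive (67.6% of all genes), with a median of 0.43, and 7 were higher without overlap, against 14.8% of all genes. In pools 1 and 2 the medians were 0.51 and 0.42 for the epithelium list and 0.61 and 0.55 for the T cell list, where all genes with marrow means of 4 to 6 had medians of 0.40 to 0.54. In pool 3 they were 0.19 and 0.21. Slc5a1 is in the epithelium list and in the transport list above. The 15 markers of macrophages, monocytes and dendritic cells averaged 5.20 to 5.44 in lamina propria pools and 5.05 to 5.27 in marrow pools, with Itgam and Tyrobp at -0.70 and -0.20. Of these 15, 10 were positive (67.6% of all genes), with a median of 0.29. Without overlap, 5 were higher and 1 lower, against 14.8% and 7.27% of all genes. The 12 granulocyte markers averaged 4.94 to 5.44 in lamina propria pools and 5.01 to 5.95 in marrow pools, with S100a9 and Cebpe at -2.002 and 0.34. Of these 12, 7 were positive (67.6% of all genes), with a median of 0.17. Without overlap, 1 was higher and 1, S100a9, lower, against 14.8% and 7.27% of all genes. In marrow pools S100a9 read 6.56, 9.26 and 6.68, so pool 2 was far above the others. The mean levels of the macrophage and granulocyte lists overlapped between the tissues. The 6 of 12 erythroid markers measured averaged 5.24 to 5.87 in lamina propria pools and 5.37 to 5.45 in marrow pools, with Slc4a1 and Epor at 0.29 and 0.42. The 8 plasma cell markers averaged 5.66 to 6.36 in lamina propria pools and 5.45 to 5.89 in marrow pools, with Irf4 and Mzb1 at 0.08 and -0.54. Their mean levels also overlapped, and 4 of these 8 genes lay above and 2 below the median gene of every array. Of these 8, 6 were positive (67.6% of all genes), with a median of 0.34. Jchain, Prdm1 and Tnfrsf17, named after their values were seen, were higher without overlap (14.8% of all genes), at 1.41, 0.62 and 0.52. The mean levels of the epithelium and T cell lists were higher in every lamina propria pool than in any marrow pool, as Slc2a1 and Hk2 were. The part of any of these markers in the members' values was not tested.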

How the data were processed

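RNA from 6 pools of sorted cells was measured on whole-transcript arrays. Per the labels' protocols, between 4.5 and 47 ng of RNA per pool were amplified and labelled with biotin, with no amount stated for single pools. The values are log2 and were deposited by the authors after RMA. The submitters' processing notes name Affymetrix Expression Console 1.3.0.187 for this step, with settings not given in the sources used here.

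No further scaling was applied. Of 35556 probe sets, the gene table names 1 gene for 21789, several for 1621 and leaves 12146 unlisted. The probe set with the highest mean stood for its gene, which gave 19938 genes, 999 of them with more than 1 probe set. The tissues were compared with limma 3.58.1 (R 4.3.3, lmFit and eBayes, two-sided), with Benjamini-Hochberg adjusted p under 0.05 over all genes as the call. Each difference is the lamina propria mean minus the bone marrow mean in log2 units. The p-values weigh this difference against the spread between pools, with each gene's variance moderated over all genes. The fit was also run on simulated data, in which genes varied independently and no array was shifted as a whole. That run therefore does not cover the level-dependent array shifts described above.

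Members and gene lists were chosen with earlier results of these data known. From each list were named the genes past the threshold, those with the highest mean level (6 for enzymes and transport, 4 for other pathway lists, 2 for markers) and a fixed set of pathway genes, from Hif1a to Tigar. The 5 genes most like the median of the members' centred values were taken by Pearson r.

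Alternatives were a replicate block by pool number, a dim-gene filter, median centring, cyclic loess, a trend in the variances with robust estimation, weights per array, 2 further ways to join probe sets, and leaving out arrays. Deviations of same-numbered pools correlated across genes at 0.13, 0.05 and 0.23, so a shared number does not show pairing. Promoters came from RefSeq on GRCm38.p6. Figures were drawn with matplotlib 3.10.9.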

Additional observations from a re-analysis of the deposited data

How the results depend on the processing

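Over 15 alternatives, the members' differences kept their direction and their side of the threshold in 128 of 133 values. Part of this count was fixed in advance. The replicate block, the dim-gene filter and the variance trend cannot change a difference. Nor can the ways to join probe sets, for the 7 members with 1 probe set. Pgk1 turned to 0.014 with cyclic loess and to 0.14 without lamina propria pool 1 (range -0.99 to 0.14 when 1 array was left out), and Pfkp to 0.017 with lamina propria pools 1 and 2 left out together. Pfkp passed without lamina propria pool 3 (-1.52) and with array weights (-1.40, limma adjusted p = 0.0478), where pool 3 had a weight of 0.15. Members past the threshold were thus 1 of 9 with array weights, where 5586 of all 19938 genes passed, and 0 to 1 when 1 array was left out. The 1 came without lamina propria pool 3, where 7222 of all 19938 genes passed. Genes past the threshold were 16 with the pool number as a replicate block, 40 with an intensity trend and robust variances, 5586 with array weights, and 0 to 7222 when 1 array was left out, the highest without lamina propria pool 3. The block changed no call of a member, and a shared pool number does not show pairing. Members without overlap were 1 of 7 among genes above the median level (21% of all genes kept), where Hk2 was filtered out. They were 0 with each array centred on its median (21.9% of all genes) and 3 with cyclic loess (18.7%). With lamina propria pools 1 and 2 left out together they were 6, where 51.5% of all genes did not overlap. When 1 array was left out they were 2 to 4, where 25.7% to 69.9% of all genes did not overlap. The members' median was 0.25 to 0.43 with single arrays left out, beside 0.15 to 0.33 over all genes. It was 0.46 with lamina propria pools 1 and 2 left out together, beside -0.01 over all genes. Cyclic loess moved the median of all genes to 0.01, from 0.22, and the members' median to 0.40. Within the members it lowered Hk2 to 0.03, Pfkl to 0.40 and Slc2a1 to 0.45. It raised Aldoa to 0.71, Ldha to 0.81 and Pkm to 1.22. The probe set with the most accessions per gene, a choice made after seeing the data, gave a members' median of 0.33 and a Pkm difference of 0.29. Precision is limited by 3 arrays per tissue, and the values carry no detection calls.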
